A study of Mus musculus with 30 samples.

Results

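Pluripotency genes of fetal germ cells were followed as 8 listed genes, Pou5f1, Sox2, Nanog, Dppa3, Dppa5a, Utf1, Lin28a and Zfp42, found by mouse symbol among the 49315 Ensembl genes of the count tables. All 8 were present under 1 identifier each, and all 8 passed the filter on low counts that left 19323 genes for testing. RNA had been sequenced from 30 cultures of testes of C57BL/6 mouse fetuses, dissected free of the mesonephros at gestational day 14 and cultured for 24 h. The cultures received DMSO vehicle (n = 15), the phthalate monoester MEHP, mono-(2-ethylhexyl) phthalate, at 100 µM (n = 6), all-trans retinoic acid (ATRA), the active form of vitamin A, at 1 µM (n = 5), or both compounds at those doses (n = 4). Sample titles carry a second number that lies either below or above 500, whose meaning is not stated. The upper range held the 6 MEHP libraries and 6 of vehicle, and the lower range held the other treated libraries and 9 of vehicle, so a treatment was compared with vehicle of the same range. No genetic modification is given for any group. The labels do not say whether libraries came from separate animals, and the p-values therefore speak only of the spread among these libraries, which may be technical.

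Primordial germ cells, the precursors of sperm and eggs, express the transcription factor network that keeps embryonic stem cells pluripotent. After germ cells settle in the gonad this network is switched off: in the fetal testis as the cells stop dividing and become prospermatogonia, with NANOS2 and the de novo methylation cofactor DNMT3L rising, and in the fetal ovary as retinoic acid induces STRA8 and the cells enter meiosis. Pou5f1, which encodes OCT4, and Sox2 encode partner proteins that bind composite DNA elements, and Nanog encodes a homeodomain protein of the same network. Utf1 encodes a chromatin-associated factor, Zfp42 the zinc finger protein REX1, Dppa3 a protein that shields DNA methylation in the zygote, Dppa5a an RNA-binding protein of pluripotent cells, and Lin28a an RNA-binding protein that blocks maturation of certain microRNAs.

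Start-site sequence was matched by symbol for 6 of the 8 genes in the RefSeq promoter table (GRCm38.p6), as windows of 250 bases before and 50 bases after the start; Dppa3 and Dppa5a were not matched. Each window was searched on both strands for the octamer core TTTGCAT, the full octamer ATTTGCAT, a SOX core ACAATG, a composite in which the octamer core is followed after 1 base of any kind by the SOX core, and the nuclear receptor half-site AGGTCA. The sequences below are those of Nanog, which held the composite, of Zfp42, of Pou5f1 and Lin28a, the pair that varied most alike between libraries, and of Utf1, the gene with the firmest treatment difference. Capitals mark motif matches, and all are written 5′ to 3′ on the strand of the gene.
Nanog promoter, chr6:122707239-122707538, plus strand: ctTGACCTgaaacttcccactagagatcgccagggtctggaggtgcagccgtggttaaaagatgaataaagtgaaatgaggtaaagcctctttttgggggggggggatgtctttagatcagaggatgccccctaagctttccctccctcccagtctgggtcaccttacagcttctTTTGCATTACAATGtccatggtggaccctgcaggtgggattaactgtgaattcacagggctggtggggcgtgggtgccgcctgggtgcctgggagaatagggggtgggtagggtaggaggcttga
Zfp42 promoter, chr8:43306960-43307259, minus strand: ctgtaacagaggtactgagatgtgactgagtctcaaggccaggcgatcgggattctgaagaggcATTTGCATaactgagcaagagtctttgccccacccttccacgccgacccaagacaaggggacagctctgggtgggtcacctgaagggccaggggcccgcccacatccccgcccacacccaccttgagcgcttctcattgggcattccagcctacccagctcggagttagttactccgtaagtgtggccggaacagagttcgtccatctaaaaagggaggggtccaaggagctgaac
Pou5f1 promoter, chr17:35505782-35506081, plus strand: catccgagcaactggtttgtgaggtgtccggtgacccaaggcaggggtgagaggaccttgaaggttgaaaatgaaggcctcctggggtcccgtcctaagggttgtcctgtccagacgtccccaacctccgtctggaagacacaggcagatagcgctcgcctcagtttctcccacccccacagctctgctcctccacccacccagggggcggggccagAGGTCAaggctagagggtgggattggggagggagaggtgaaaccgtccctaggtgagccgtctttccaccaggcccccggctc
Lin28a promoter, chr4:134018767-134019066, minus strand: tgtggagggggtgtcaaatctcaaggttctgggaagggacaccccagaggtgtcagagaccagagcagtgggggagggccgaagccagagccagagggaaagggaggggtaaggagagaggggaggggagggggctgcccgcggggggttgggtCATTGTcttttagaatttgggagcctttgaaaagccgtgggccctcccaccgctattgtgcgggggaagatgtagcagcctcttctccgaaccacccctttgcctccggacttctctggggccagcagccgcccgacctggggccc
Utf1 promoter, chr7:139943606-139943905, plus strand: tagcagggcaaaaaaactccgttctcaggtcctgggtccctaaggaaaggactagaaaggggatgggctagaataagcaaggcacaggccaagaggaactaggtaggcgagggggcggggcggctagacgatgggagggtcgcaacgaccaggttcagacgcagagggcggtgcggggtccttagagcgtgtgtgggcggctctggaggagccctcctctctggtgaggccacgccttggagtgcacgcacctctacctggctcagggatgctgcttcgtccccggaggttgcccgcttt

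The composite in the Nanog window began at position −75 from the start site, and it overlaps the octamer core and the SOX core that compose it. Nanog was the 1 gene of 27025 with a promoter in the table that held this exact string (0.0037%), and looser forms of the composite were not searched. The Nanog window also held a half-site at position −248, on the minus strand. The Zfp42 window held the full octamer at position −186, a motif present in 1.74% of all 32851 promoter windows, and the octamer core within it is present in 4.63%. The Pou5f1 window held AGGTCA at position −33, a half-site found in 16.3% of windows. The Lin28a window held 1 SOX core on the minus strand at position −96, a motif of 12.6% of windows, and no searched motif matched in the Utf1 window. The Sox2 window, not printed, held an octamer core at position −99 and a half-site at position −244. Its start site lay 410 bases before the Sox2 start in the count files, so these positions do not refer to that start. For the other matched genes the distance was at most 67 bases (Utf1). These matches describe letters in fixed windows and carry no measurement of binding.

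Total counts per library ran from 17551454 to 29306917, with the same extremes in vehicle. The treated libraries lay between them, MEHP at 17787871 to 20680365, ATRA at 18580209 to 26955598 and the combined exposure at 21463109 to 24038103. The cultures were whole testis: defining germ cell genes Ddx4 (123 ± 21 CPM in lower-range vehicle, SD, n = 9) and Dazl, both markers of germ cells, were present in every library, beside Sertoli and Leydig cell genes. CPM are library counts scaled by TMM to a common total. In such bulk RNA, fewer germ cells and less RNA per germ cell cannot be told apart. The summed level of 7 germ cell genes used below for a second scaling (Ddx4, Dazl, Dnd1, Stk31, Rbm46, Rnf17 and Tdrd5) was 663 ± 92 CPM in lower-range vehicle, 508 ± 110 in upper-range vehicle, 421 ± 100 in MEHP, 640 ± 56 in ATRA and 552 ± 87 in MEHP + ATRA libraries (SD).

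Levels differed widely among the 8 genes. Per exon length, in lower-range vehicle libraries, Dppa3 stood highest at 77.5 ± 16 RPKM (CPM per kilobase of exon; SD, n = 9), followed by Utf1 at 60.7 ± 8.1, Pou5f1 at 54.9 ± 8.2, Dppa5a at 36.3 ± 9.9 and Lin28a at 13.1 ± 2.4 RPKM. Sox2 (5.06 ± 2.2), Zfp42 (4.38 ± 0.60) and Nanog (2.2 ± 0.78 RPKM) were the lowest. The depth behind the low genes was small in some libraries: Nanog had 15 to 281 counts and Sox2 12 to 725 counts per library, against 1025 to 3470 for Pou5f1. For every member, groups next to each other in the order of mean level had overlapping library values.

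**Figure D1:**
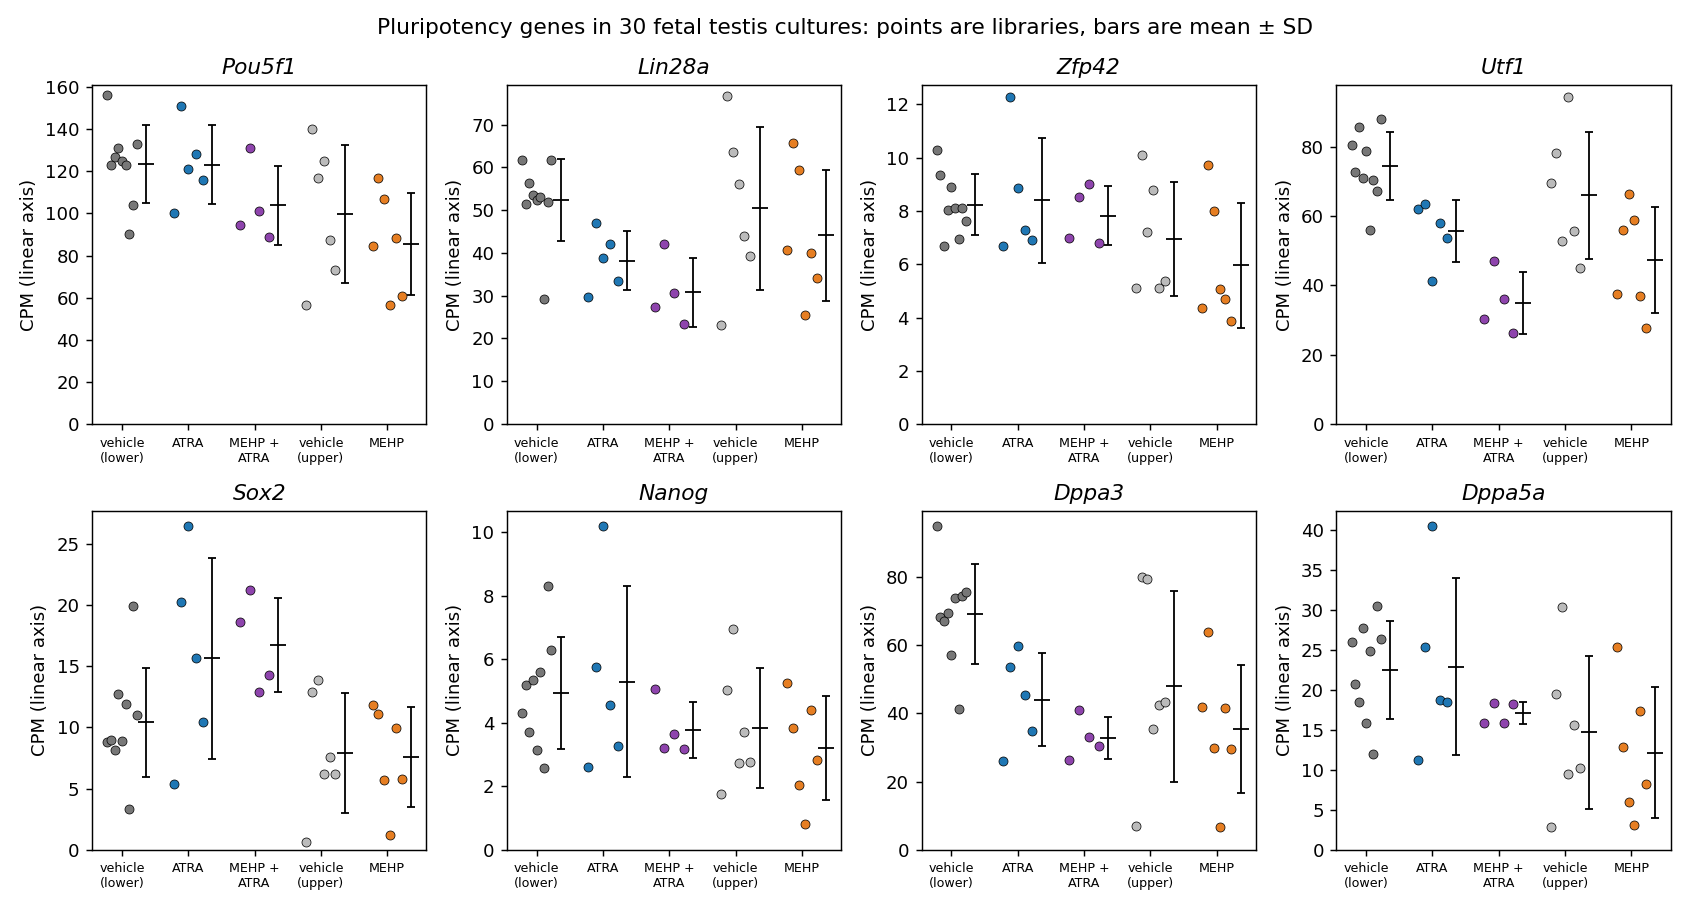
Level of each of the 8 pluripotency genes in CPM (linear axis from 0) in every library, by treatment group, with vehicle split by title number range; black bars are mean ± SD. The 4 MEHP + ATRA libraries lay below all lower-range vehicle libraries for Utf1 (26.3 to 46.9 against 56.1 to 88.0 CPM) and Dppa3 (26.3 to 40.9 against 41.2 to 95.1 CPM).

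In the main fit, combined exposure lowered 3 of the 8 genes, Utf1, Lin28a and Dppa3, and no member passed with either compound alone. These calls depended on the fit. When libraries sharing the first number of their titles were treated as a block, Lin28a and Dppa3 did not pass with MEHP + ATRA. Under that block Utf1 passed with both compounds together and with each alone. With MEHP + ATRA, 14.7% of all tested genes were called lower and 29% in either direction (edgeR quasi-likelihood test, adjusted p under 0.05), against which 3 of 8 members lower and 0 higher stands. Of the members, 7 had a negative log2 fold change with MEHP + ATRA, with a median of −0.40 against −0.01 over all tested genes. Sox2 was the exception in direction.

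Utf1 (ENSMUSG00000047751, chromosome 7, 139943789 to 139945112) showed the firmest difference. Lower-range vehicle libraries had a lowest value of 56.1, a median of 72.6 and a highest of 88.0 CPM. The 4 MEHP + ATRA libraries had 30.2, 46.9, 36.1 and 26.3 CPM (replicates 1 to 4), and the 5 ATRA libraries 62.0, 63.6, 41.2, 58.0 and 53.7 CPM (replicates 1 to 5). All 4 MEHP + ATRA libraries were below every vehicle library of their range, and 3 of the 4 were also below every ATRA library, while the ATRA and vehicle values overlapped. Utf1 fell to 0.468 of vehicle with MEHP + ATRA, a log2 fold change of −1.10 ± 0.20 (SE; adjusted p = 5.63e-05, edgeR), and the call held without any 1 library. With ATRA alone the difference was −0.42 ± 0.17 (adjusted p = 0.1, edgeR). With MEHP alone it was −0.48 ± 0.18 (adjusted p = 0.149, edgeR), with upper-range vehicle at 45.0 to 94.4 and MEHP at 27.6 to 66.3 CPM. Both single-compound differences had an unadjusted p under 0.05, and some of the alternative fits called them. MEHP + ATRA against ATRA gave −0.68 ± 0.21 (adjusted p = 0.0851, edgeR), and this difference passed the test without MEHP + ATRA replicate 2 (adjusted p = 0.0355).

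Lin28a (ENSMUSG00000050966, chromosome 4, 134003330 to 134018841) ranged in lower-range vehicle from 29.3 over a median of 53.2 to 61.8 CPM. With MEHP + ATRA it had 27.3, 42.0, 30.6 and 23.3 CPM (replicates 1 to 4), and with ATRA 29.7, 47.1, 38.8, 42.1 and 33.4 CPM (replicates 1 to 5). The groups overlapped through vehicle replicate 12, whose 29.3 CPM lay well under the next vehicle value of 51.5. Lin28a fell with MEHP + ATRA by −0.77 ± 0.24 (SE; adjusted p = 0.0135, edgeR); the difference with ATRA was −0.46 ± 0.22 (adjusted p = 0.160) and with MEHP −0.19 ± 0.22 (adjusted p = 0.781). The call was lost without MEHP + ATRA replicate 1 (adjusted p = 0.0511) or replicate 4 (0.0734, edgeR). Lin28a shares 234 exon bases with Gm13061 on the opposite strand, whose reads cannot be told apart here because the strand setting of the counting is not given in the sources used here.

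Dppa3 (ENSMUSG00000046323, chromosome 6, 122626410 to 122630272) ranged in lower-range vehicle from 41.2 over a median of 69.4 to 95.1 CPM. It had 26.3, 40.9, 33.1 and 30.5 CPM with MEHP + ATRA (replicates 1 to 4) and 26.2, 53.7, 59.8, 45.4 and 35.0 CPM with ATRA (replicates 1 to 5). All 4 MEHP + ATRA libraries were below every vehicle library of their range, the nearest by a narrow margin, and 2 of 5 ATRA libraries were below it as well. Dppa3 fell with MEHP + ATRA by −1.08 ± 0.39 (SE; adjusted p = 0.0352, edgeR), against −0.65 ± 0.35 with ATRA (adjusted p = 0.233) and −0.43 ± 0.36 with MEHP (adjusted p = 0.664). The call was lost without vehicle replicate 1 (adjusted p = 0.0592) or MEHP + ATRA replicate 1 (0.106), replicate 3 (0.0784) or replicate 4 (0.0915, edgeR). Its pseudogene Dppa3-ps reached at most 27 counts in a library.

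The other 5 genes, the core factors among them, did not pass the test in any treatment comparison. Pou5f1 (ENSMUSG00000024406, chromosome 17, 35506018 to 35510772), the most abundant of these per length, ranged from 90.1 over a median of 125 to 156 CPM in lower-range vehicle. It had 100, 151, 121, 128 and 116 CPM with ATRA (replicates 1 to 5) and 94.3, 131, 101 and 89.0 CPM with MEHP + ATRA (replicates 1 to 4). These groups overlapped, and the log2 fold change was 0.00 ± 0.17 with ATRA (adjusted p = 0.998) and −0.25 ± 0.19 with MEHP + ATRA (adjusted p = 0.356, edgeR). With MEHP it was −0.22 ± 0.18 (adjusted p = 0.653). Pou5f1 shares 317 exon bases with the opposite-strand gene Gm19553.

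Sox2 (ENSMUSG00000074637, chromosome 3, 34650405 to 34652461) ranged from 3.32 over a median of 8.93 to 19.9 CPM in lower-range vehicle. It had 5.41, 20.2, 26.4, 15.7 and 10.4 CPM with ATRA (replicates 1 to 5) and 18.6, 21.2, 12.9 and 14.3 CPM with MEHP + ATRA (replicates 1 to 4). The MEHP + ATRA libraries were all above the vehicle median but overlapped its range. Its log2 fold change was 0.58 ± 0.41 with ATRA (adjusted p = 0.392) and 0.68 ± 0.43 with MEHP + ATRA (adjusted p = 0.265, edgeR), and −0.07 ± 0.45 with MEHP (adjusted p = 0.972). Sox2 is also a gene of neural and glial progenitors, and the summed level of 9 neural and glial markers was 36.3 ± 4.0 CPM in lower-range vehicle (range 31.8 to 43.4), 56.6 ± 4.8 with ATRA (51.5 to 64.0) and 51.7 ± 6.3 with MEHP + ATRA (45.0 to 58.4; SD). Of 7 tested markers of that list 5 rose and 1 fell with ATRA, beside 9.06% and 9.03% of all genes, among the risers Sox10 by 0.88 ± 0.19 and Stmn2 by 2.06 ± 0.25; their part in the Sox2 values was not tested.

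Nanog (ENSMUSG00000012396, chromosome 6, 122707489 to 122714633) had 2.58 to 8.29 CPM in lower-range vehicle, with a median of 5.20. It had 2.62, 5.76, 10.2, 4.56 and 3.27 CPM with ATRA (replicates 1 to 5) and 5.05, 3.21, 3.65 and 3.18 CPM with MEHP + ATRA (replicates 1 to 4), all overlapping. Its log2 fold change was 0.11 ± 0.33 with ATRA (adjusted p = 0.891), −0.39 ± 0.36 with MEHP + ATRA (adjusted p = 0.471) and −0.26 ± 0.36 with MEHP (adjusted p = 0.828, edgeR). Its processed pseudogenes Nanog-ps1 and Nanog-ps2 had 0 counts.

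Dppa5a (ENSMUSG00000060461, chromosome 9, 78367052 to 78368177) had 12 to 30.5 CPM in lower-range vehicle, with a median of 24.8. It had 11.2, 25.4, 40.5, 18.7 and 18.5 CPM with ATRA (replicates 1 to 5) and 15.8, 18.3, 15.9 and 18.2 CPM with MEHP + ATRA (replicates 1 to 4). The MEHP + ATRA values lay close together, inside the vehicle range, and the log2 fold change was −0.40 ± 0.40 (adjusted p = 0.505, edgeR). With ATRA it was 0.03 ± 0.36 (adjusted p = 0.979) and with MEHP −0.28 ± 0.40 (adjusted p = 0.838).

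Zfp42 (ENSMUSG00000051176, chromosome 8, 43295063 to 43306980) had 6.70 to 10.3 CPM in lower-range vehicle and 6.99, 8.52, 9.0 and 6.80 CPM with MEHP + ATRA (replicates 1 to 4). These MEHP + ATRA values lay inside the vehicle range, and the log2 fold change was −0.07 ± 0.20 (adjusted p = 0.836, edgeR). With ATRA it was 0.03 ± 0.19 (adjusted p = 0.949) and with MEHP −0.22 ± 0.20 (adjusted p = 0.702, edgeR). With MEHP, 4 of 6 libraries were below every upper-range vehicle library, although the ranges overlapped (3.88 to 9.72 against 5.11 to 10.1 CPM).

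MEHP alone called 0 of 8 members, with 4.72% of all tested genes called; 1 member, Utf1, had an unadjusted p under 0.05, and DESeq2 and limma-voom also called 0. All 8 members had a negative log2 fold change with MEHP, with a median of −0.24 against −0.01 over all tested genes, and the summed level of the 7 germ cell genes was also lower on average in these libraries, as given above. ATRA alone called 0 of 8 members, with 18.1% of all tested genes called; 2 members, Utf1 and Lin28a, had an unadjusted p under 0.05, DESeq2 called 0 and limma-voom called 3 (Dppa3, Lin28a and Utf1). Adding MEHP to ATRA called 0 of 8 members in edgeR, with 3% of genes called, and 1 in DESeq2 and in limma-voom, in each Utf1. The interaction, which sets what MEHP did in the presence of ATRA against what it did in its absence, called 0 of 8 members, with 0.0311% of genes called and 0 members at an unadjusted p under 0.05; DESeq2 and limma-voom called 0 too. MEHP was given with ATRA only in the lower range and without it only in the upper range. An MEHP effect that differs between ranges therefore cannot be told apart from an interaction. The interaction estimate for Utf1 was −0.19 ± 0.28 and that for Dppa3 0.00 ± 0.55, and both adjusted p were 1.00 (edgeR).

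**Figure D2:**
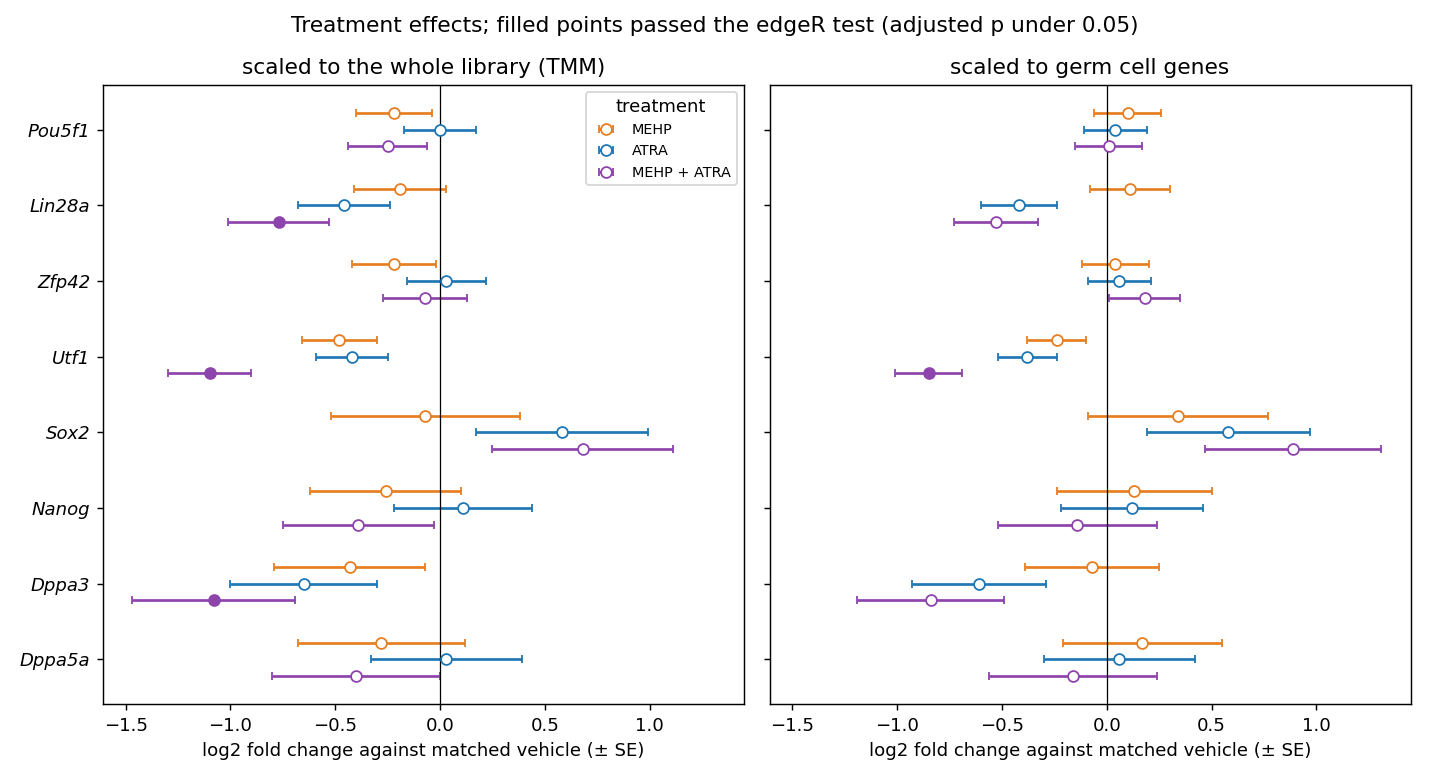
Log2 fold change ± SE of the 8 genes in each of the 3 treatments against vehicle of the same range, scaled to the whole library (left) or to 7 germ cell genes (right); filled points passed the edgeR test. Utf1 with MEHP + ATRA passed under both scalings, at −1.10 and −0.85, while Lin28a and Dppa3 passed only under the first.

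Scaling to the summed counts of the 7 germ cell genes gave levels relative to other germ cell RNA and moved the median log2 fold change of all genes to 0.27 with MEHP and 0.25 with MEHP + ATRA. Scaled to the whole library, some of these 7 genes changed themselves: Tdrd5 fell in each treatment (MEHP −0.64, ATRA −0.83, MEHP + ATRA −1.57), Dnd1 fell with MEHP + ATRA (−0.99), and Rbm46 rose with ATRA (0.52) and with MEHP + ATRA (0.63). On the germ cell scale the MEHP differences of 6 members turned positive, among them Pou5f1 (0.10 ± 0.16, adjusted p = 0.650) and Sox2 (0.34 ± 0.43, adjusted p = 0.560, edgeR), and none passed the test, with 2.26% of genes called. With ATRA, where 6.04% were called, none passed either, and Utf1 had −0.38 ± 0.14 (adjusted p = 0.119, edgeR). With MEHP + ATRA, where 18.1% of genes were called, Utf1 fell by −0.85 ± 0.16 (adjusted p = 6.51e-05, edgeR). Dppa3 (−0.84 ± 0.35, adjusted p = 0.0875) and Lin28a (−0.53 ± 0.20, adjusted p = 0.0553) did not pass. Sox2 had 0.89 ± 0.42 (adjusted p = 0.129), and Pou5f1 had 0.01 ± 0.16 (adjusted p = 0.980, edgeR). Relative to germ cell genes, the estimates thus ran from Utf1 and Dppa3 at the low end to Sox2 at the high end, with Pou5f1, Nanog (−0.14 ± 0.38), Dppa5a (−0.16 ± 0.40) and Zfp42 (0.18 ± 0.17) between.

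Vehicle libraries of the upper range had lower point estimates than those of the lower range for all 8 members, from −0.06 ± 0.20 for Lin28a to −0.61 ± 0.35 for Dppa5a. None passed the test (lowest adjusted p = 0.429, edgeR), with 0.373% of all genes called, 0 members at an unadjusted p under 0.05 and 0 called by DESeq2 or limma-voom. The direction was not particular to the members. All 7 germ cell genes of the second scaling were also lower in the upper range, with a median of −0.34, the same as that of the members. Scaled to those 7 genes, the member estimates went in both directions, from −0.28 ± 0.35 for Dppa5a to 0.29 ± 0.17 for Lin28a. Spread was wider in the upper range: the coefficient of variation of Dppa3 was 58.4% in 6 upper-range against 21.1% in 9 lower-range vehicle libraries, that of Dppa5a 65.0% against 27.2% and that of Pou5f1 32.8% against 14.8%; the difference in spread was not tested. MEHP libraries, all in the upper range, had 6.76 to 63.8 CPM of Dppa3, against 6.95 to 80.0 in their vehicle. Both lowest values came from libraries described next.

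The 8 genes also varied between libraries of the same group. After group and range means were removed, the residual SD of log2 CPM was 1.05 for Sox2, 0.81 for Dppa3 and Dppa5a and 0.69 for Nanog, but 0.43 for Lin28a, 0.36 for Zfp42 and 0.34 for Pou5f1 and Utf1, where the median of all tested genes was 0.18. Among expressed genes, those whose log2 CPM averaged 1 or more, these SDs stood at percentiles from 92.2 for Utf1 to 99.8 for Sox2. Dnmt3l had a residual SD of 1.21 and Ddx4 one of 0.31.

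Vehicle replicate 3 and MEHP replicate 4, which share their first title number and the upper range, held the lowest Sox2 values of the series, 0.632 and 1.21 CPM, against 6.17 to 13.9 in the other upper-range vehicle libraries. Vehicle replicate 4 and MEHP replicate 2 share that number and range too. They had 12.9 and 11.1 CPM of Sox2 and 47.4 and 52.0 CPM of Dnmt3l. Vehicle replicate 3 and MEHP replicate 4 also had the lowest Dppa3 values (6.95 and 6.76 CPM) and the lowest Dppa5a values (2.90 and 3.08 CPM). Pou5f1 (56.3 CPM in each), Nanog (1.74 and 0.824 CPM) and the germ cell marker Dazl (55.9 and 63.6 CPM) were likewise at their lowest there. Lin28a was low as well, at 23.1 and 25.4 CPM. Utf1 was not low in these libraries (69.6 and 59.0 CPM), Ddx4 had 89.6 and 108 CPM, and Dnmt3l was at 118 CPM in each, the highest of all libraries. At the opposite end, vehicle replicate 6 had 13.9 CPM of Sox2 and 12.2 CPM of Dnmt3l, and vehicle replicate 13 had 19.9 and 6.66 CPM.

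A first principal component of the residuals, computed over genes other than the members, took 35.9% of the variance and ran from −27.5 in vehicle replicate 6 to 30.3 in vehicle replicate 3 and 31.5 in MEHP replicate 4. Group means had been removed beforehand, so every group centres on the same point of it by construction. The component therefore cannot show a shift between treatments. Within groups, libraries spread along it, with medians of −5.6 in MEHP, −0.7 in ATRA, −1.7 in MEHP + ATRA and 0.2 and −4.4 in lower- and upper-range vehicle. Genes listed for male germ cell differentiation lay at both ends of it: Pearson r over 30 libraries was 0.95 for Dnmt3l, 0.94 for the piRNA pathway gene Piwil4 and 0.97 for Tdrd9, but −0.78 for Nanos2, −0.68 for Nanos3, −0.81 for Lefty1, −0.72 for Lefty2 and −0.42 for Cdkn1b. Genes of other lists lay as far out, such as the meiosis genes Stag3 (0.94) and Mei1 (0.92) and the Sertoli gene Cst9 (−0.79). Nanog (r = −0.87), Dppa5a (−0.85), Sox2 (−0.80) and Dppa3 (−0.70) ran against it. Utf1 ran with it (r = 0.69), and Pou5f1 (−0.19), Lin28a (−0.34) and Zfp42 (0.12) showed little relation. These r describe libraries that share groups and depth and are given without a test.

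**Figure D3:**
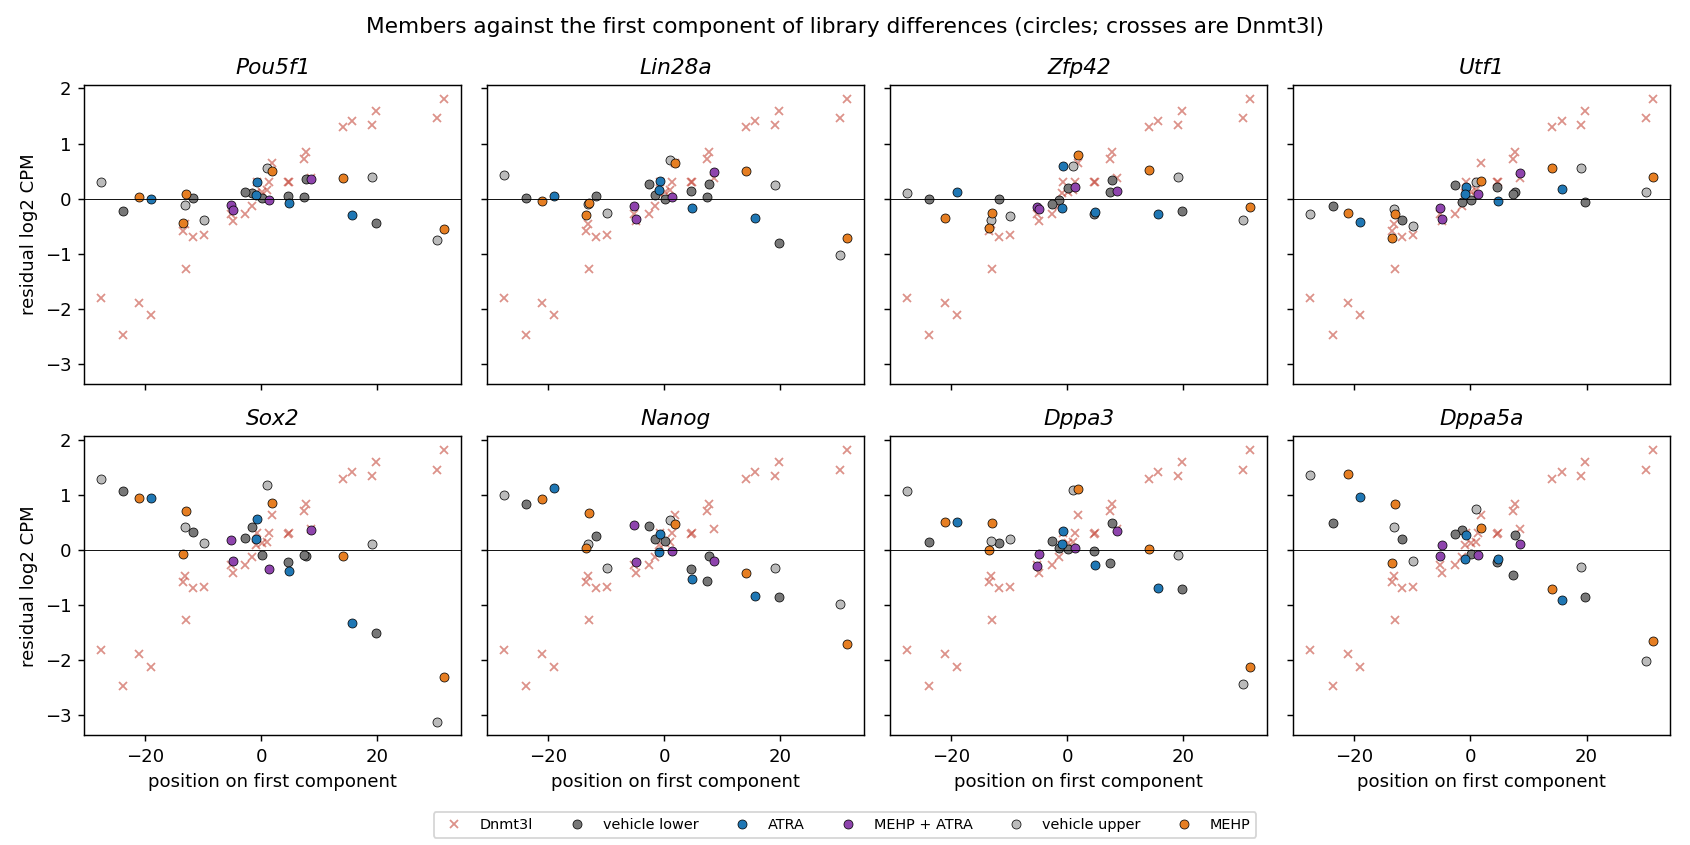
Residual log2 CPM of each member (circles, coloured by group) against the position of the library on the first component of library differences, with Dnmt3l (crosses) in every panel for reference. Sox2, Nanog, Dppa3 and Dppa5a descend to the right, with r from −0.87 to −0.70, and Utf1 ascends (r = 0.69).

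The relations held within both ranges. For Nanog r was −0.90 over the 18 lower-range and −0.85 over the 12 upper-range libraries, for Dppa5a −0.80 and −0.87, for Sox2 −0.84 and −0.79, for Dppa3 −0.55 and −0.76, and for Utf1 0.58 and 0.75. Without the 2 libraries farthest on the component, r was −0.81 for Nanog, −0.77 for Dppa5a, −0.70 for Sox2, −0.49 for Dppa3 and 0.71 for Utf1, and Spearman's rho over all 30 was −0.81, −0.74, −0.72, −0.55 and 0.76 in that order. Many genes followed the component: among 14134 expressed genes, 3.7% had an r at least as far from 0 as that of Nanog and 15.6% as that of Utf1.

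Residuals of Sox2, Nanog, Dppa3 and Dppa5a correlated with each other at r of 0.79 to 0.94, and those of Pou5f1, Lin28a and Zfp42 at 0.73 to 0.95, over 30 libraries. Values of r between the former 4 and the latter 3 overlapped with these, from 0.22 to 0.83, and Lin28a was closer to Sox2 (0.78) than to Zfp42 (0.73). Utf1 had r of −0.39 to −0.16 with the former and 0.34 to 0.57 with the latter. The closest pair was Pou5f1 and Lin28a (r = 0.95, rho = 0.93; r = 0.91 in the lower and 0.97 in the upper range, and 0.92 without the 2 libraries farthest in Pou5f1), each of which was the gene most like the other among all genes compared. All 28 pairs together had a median r of 0.61. The grouping was drawn from these values and is a description.

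**Figure D4:**
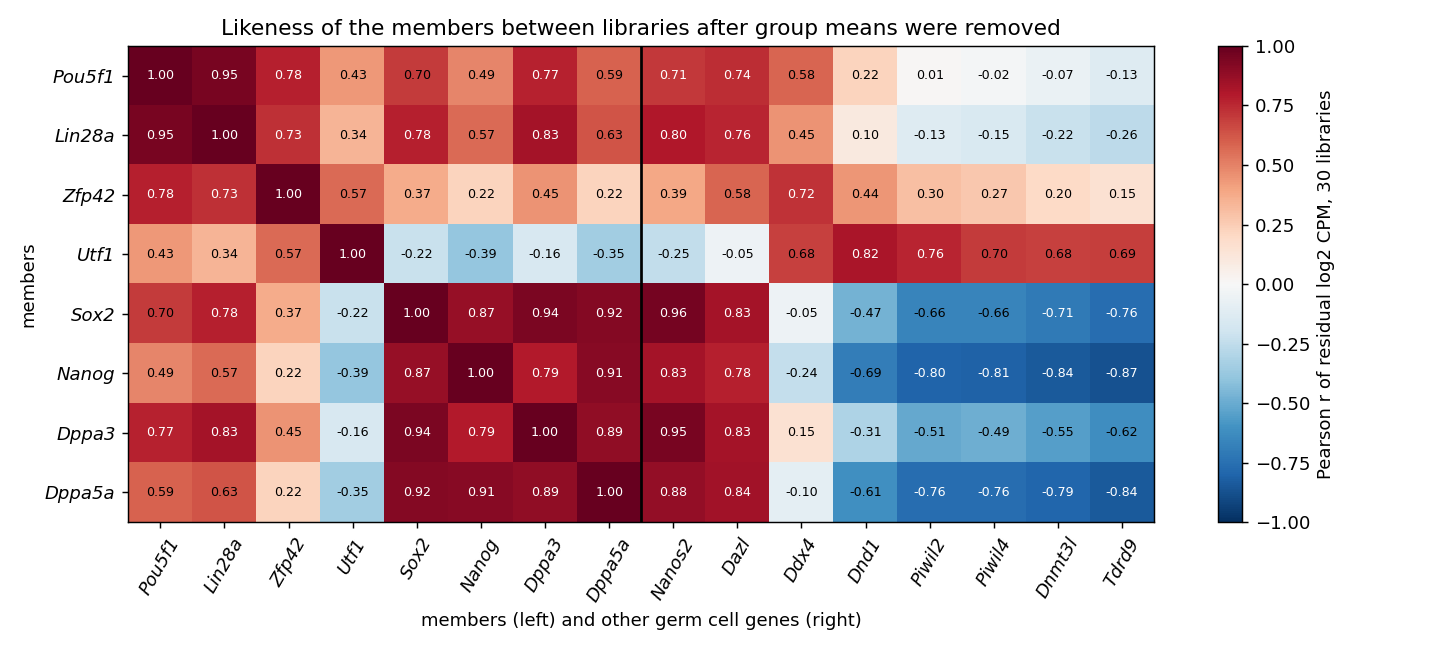
Pearson r of residual log2 CPM over 30 libraries between the 8 members (rows) and the members and 8 other germ cell genes (columns). Sox2, Nanog, Dppa3 and Dppa5a correlate with each other at r from 0.79 to 0.94 and run against Dnmt3l and Tdrd9, with which Utf1 correlates at 0.68 and 0.69.

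Nanos2, the RNA-binding repressor of meiosis in male germ cells, was the gene most like Sox2 (r = 0.96) and Dppa3 (r = 0.95). Nearest to Sox2 after it were Dppa3 (0.94) and the histone variant gene H2afy (0.93), and nearest to Dppa3 were Liph and Sox2 (0.94 each). Nanog was followed by Dppa5a (0.91), the paraspeckle gene Pspc1 (0.90) and Ap3b2 (0.90), and Dppa5a by the threonine dehydrogenase gene Tdh (0.93), Sox2 and the apoptosis gene Pmaip1 (0.92 each). Utf1 stood with the immediate early type transcription factor gene Egr4 (0.93) and the chromatin remodeler genes Cecr2 (0.93) and Chd5 (0.91), none of them members. After each other, Pou5f1 was nearest to Btbd18 (0.89) and Foxr1 (0.88), and Lin28a to Foxr1 and Zcchc12 (0.90 each). Zfp42 had the loosest partners, Zbed5 and Hsf2bp (0.83 each) and Cep95 (0.81).

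Nanos2, although most like Sox2 and Dppa3 between libraries of a group, had values of another direction across treatments than Sox2. Its 4 MEHP + ATRA libraries had 0.432, 0.419, 0.405 and 0.326 CPM (replicates 1 to 4), below all lower-range vehicle libraries (1.48 to 8.84 CPM). These values rest on 8 to 10 counts per library, against 28 to 255 in lower-range vehicle. Nanos2 was also near the floor in vehicle replicate 3 and MEHP replicate 4, with 7 and 5 counts. It fell by −1.86 ± 0.44 with ATRA (adjusted p = 0.00248) and by −3.92 ± 0.60 with MEHP + ATRA (adjusted p = 4.84e-06, edgeR), where the Sox2 estimates were positive and the Dppa3 estimates negative. Dnmt3l did not pass the test with MEHP + ATRA (−1.46 ± 0.67, adjusted p = 0.103), nor did Ddx4 (0.02 ± 0.17, adjusted p = 0.934) or Dazl (0.31 ± 0.16, adjusted p = 0.145). Stra8 rose in every treatment, by 5.70 ± 0.33 with MEHP + ATRA (adjusted p = 1.22e-14), 5.03 ± 0.32 with ATRA (adjusted p = 3.17e-13) and 2.05 ± 0.42 with MEHP (adjusted p = 0.0021, edgeR). MEHP + ATRA against ATRA did not pass for it (0.68 ± 0.33, adjusted p = 0.372, edgeR). Of 15 tested meiosis genes, 10 rose with ATRA and with MEHP + ATRA, beside 9.06% and 14.3% of all genes, and 0 fell, among them the cohesin genes Rec8 (2.39 ± 0.20 with MEHP + ATRA) and Smc1b (2.18 ± 0.10).

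A list of 24 other pluripotency-associated genes, 22 of them tested, held calls in both directions. Those higher with ATRA and with MEHP + ATRA were at about the share of all genes. With MEHP + ATRA 8 fell and 3 rose, beside 14.7% and 14.3% of all genes; with ATRA 5 fell and 2 rose, beside 9.03% and 9.06%, and with MEHP 0 fell and 1 rose, beside 1.84% and 2.88%. The median log2 fold change was −0.05 with MEHP + ATRA, 0.05 with ATRA and −0.20 with MEHP. Those lower with MEHP + ATRA were Tcl1, which encodes an AKT coactivator (−2.16 ± 0.35, adjusted p = 1.43e-05), the transcription factor gene Tfcp2l1 (−1.47 ± 0.23, adjusted p = 9.76e-06), Dppa4 (−1.23 ± 0.21), Fbxo15 (−1.19 ± 0.22), the germ cell specifier Tfap2c (−1.05 ± 0.24), Nr5a2 (−0.81 ± 0.24), Esrrb (−0.72 ± 0.22) and Klf2 (−0.47 ± 0.13, adjusted p = 0.00429, edgeR). Tcl1, Tfcp2l1, Dppa4, Fbxo15 and Nr5a2 were also lower with ATRA, at −0.83 ± 0.29, −0.84 ± 0.21, −0.61 ± 0.18, −0.59 ± 0.20 and −0.61 ± 0.22.

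**Figure D5:**
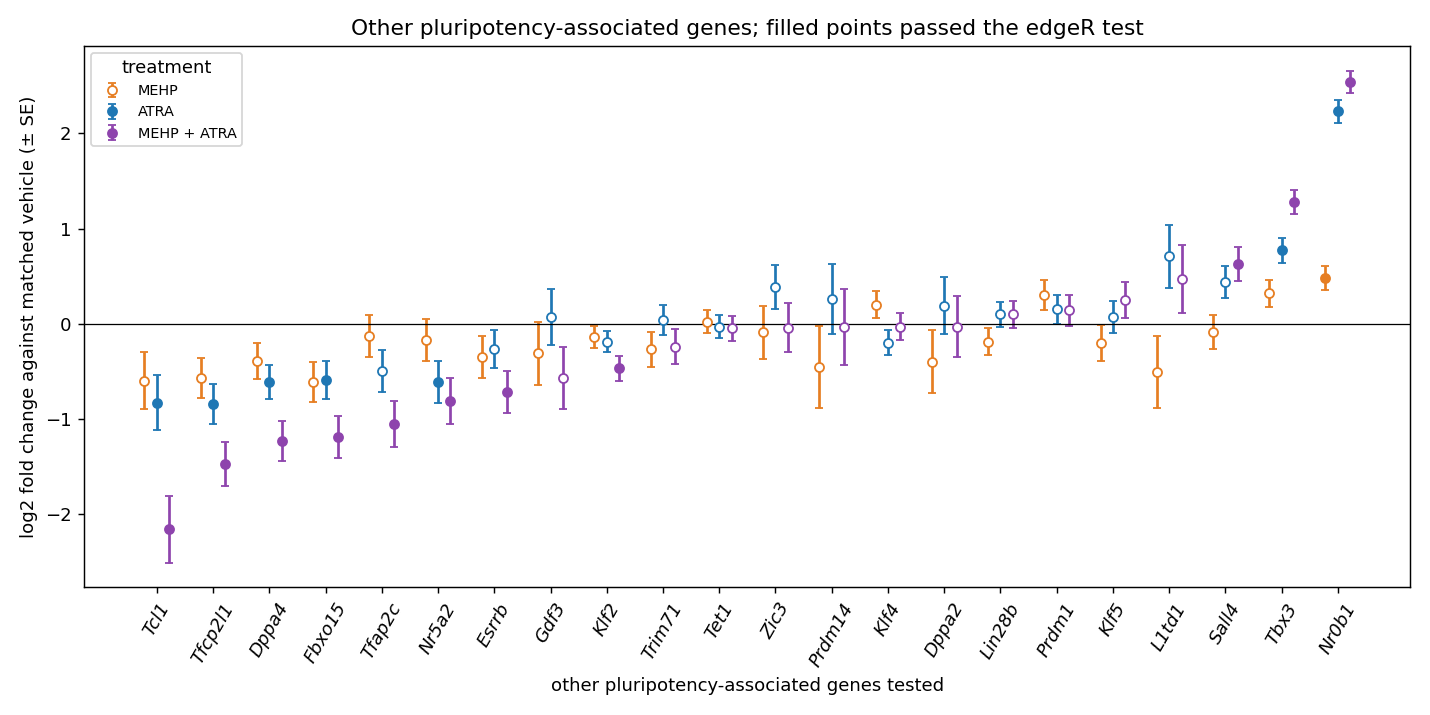
Log2 fold change ± SE of the 22 tested other pluripotency-associated genes with MEHP, ATRA and MEHP + ATRA against vehicle of the same range, ordered by the combined exposure; filled points passed the edgeR test. The 8 genes lower with MEHP + ATRA run from −2.16 (Tcl1) to −0.47 (Klf2), and the 3 higher are Sall4, Tbx3 and Nr0b1.

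Those higher were Nr0b1 (2.54 ± 0.12 with MEHP + ATRA, adjusted p = 2.41e-16; 2.23 ± 0.12 with ATRA and 0.48 ± 0.13 with MEHP), Tbx3 (1.28 ± 0.13 with MEHP + ATRA, adjusted p = 4.35e-09; 0.77 ± 0.13 with ATRA) and the zinc finger gene Sall4 (0.63 ± 0.18 with MEHP + ATRA, adjusted p = 0.00704, edgeR). Nr0b1 is also known from Sertoli and Leydig cells and Tbx3 from Leydig cells. In the same libraries, of 10 Sertoli genes 7 rose and 2 fell with MEHP + ATRA, with Sox9 at 1.28 ± 0.14 and Amh at −1.11 ± 0.16, and of 5 Leydig genes 1 rose, Star (0.81 ± 0.14), where 29% of all genes were called in either direction. The part of these cells in the values of Nr0b1 and Tbx3 was not tested.

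Of 13 pan-germ-cell genes, 3 rose and 2 fell with MEHP + ATRA, beside 14.3% and 14.7% of all genes, among them the meiotic gene Hormad1 (1.47 ± 0.20), the RNA-binding gene Rbm46 (0.63 ± 0.10) and the piRNA pathway gene Tdrd5 (−1.57 ± 0.19), and Tdrd5 was the 1 of 13 that fell with MEHP alone (−0.64 ± 0.17, adjusted p = 0.0203, edgeR). Of 16 genes of male germ cell differentiation, 5 fell and 1 rose with MEHP + ATRA, beside the same 14.7% and 14.3%, including Nanos2, Nanos3 (−1.54 ± 0.34) and the NODAL pathway gene Lefty1, which rose (1.45 ± 0.34). The summed level of the 13 pan-germ-cell genes was 908 ± 150 CPM in lower-range vehicle and 794 ± 130 with MEHP + ATRA (SD), with overlapping ranges of 645 to 1190 and 643 to 951 CPM.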

How the data were processed

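RNA was sequenced from 30 fetal testis cultures. The authors deposited unnormalized gene counts for each library, laid out as featureCounts writes them according to the headers. The submitters' processing notes name STAR 2.5.2b, Subread 1.5.2 with featureCounts, Trimmomatic 0.36, bcl2fastq 2.20 and DESeq2. Build, annotation release and strand setting of the counting were not given in the sources used here. Coordinates are those of the files, which for all 8 members equal GENCODE M21 (GRCm38). Symbols came from a gene name list that covered 99.3% of identifiers.

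Counts were tested with edgeR 4.0.16 in R 4.3.3: filterByExpr with a minimum count of 10, TMM scaling (factors 0.975 to 1.023), and 1 quasi-likelihood fit over all 30 libraries with treatment and title number range (25 residual degrees of freedom, common biological coefficient of variation 12.7%). F tests were two-sided with Benjamini-Hochberg adjustment over 19323 genes and a threshold of 0.05. MEHP + ATRA was not set against MEHP, since these groups lie in different ranges. SEs were derived from the F statistic. Alternatives used DESeq2 1.42.0 and limma-voom (limma 3.58.1). The script was tested on simulated data. The members and all gene lists were chosen with earlier results of these data known. Genes named were the members, up to 3 called members of each list, the panel Ddx4, Dazl, Nanos2, Dnmt3l and Stra8, and the 3 genes most alike per member; the remaining called genes of the list of other pluripotency-associated genes, and Piwil4, Tdrd9, Lefty2, Cdkn1b, Stag3, Mei1, Cst9 and Dnd1, were named after their values were seen.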

Additional observations from a re-analysis of the deposited data

Results flagged for a closer look

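Of 40 groups of library values tested for a single outlying library (8 members in 5 groups), 1 stood apart. Lin28a was at 29.3 CPM in vehicle replicate 12, below the other 8 lower-range vehicle libraries (51.5 to 61.8 CPM), a gap larger than the Dixon critical value allows. Chance marks about 1 in 20 such groups. The same library lay at 19.8 on the first component and had 3.32 CPM of Sox2, the lowest of its group, 112 CPM of Dnmt3l, the highest of its group, and 90.1 CPM of Pou5f1, again the lowest.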

How the results depend on the processing

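Directions of Utf1, Lin28a and Dppa3 with MEHP + ATRA were negative under every alternative run. Utf1 kept its call in all of them; Dppa3 kept it in 7 of 10 and Lin28a in 8 of 10 alternatives other than leaving out 1 library.

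Scaling to germ cell genes, which moved the median log2 fold change of all genes to 0.27 with MEHP, 0.25 with MEHP + ATRA and 0.21 in MEHP + ATRA against ATRA, reversed the MEHP values of Pou5f1 (0.10), Sox2 (0.34), Nanog (0.13), Dppa5a (0.17), Lin28a (0.11) and Zfp42 (0.04), those of Pou5f1 (0.01) and Zfp42 (0.18) with MEHP + ATRA and that of Zfp42 in MEHP + ATRA against ATRA (0.13). It called 1 member with MEHP + ATRA, 436 genes with MEHP, 1168 with ATRA, 3497 with MEHP + ATRA, 69 in MEHP + ATRA against ATRA, 1 in the interaction and 11567 between ranges. limma-voom with sample weights reversed Sox2 with MEHP (0.17) and Nanog (−0.05) and Dppa5a (−0.10) with ATRA, called 3 members and 5527 genes with ATRA, 1 member and 1656 genes in MEHP + ATRA against ATRA, 10 genes in the interaction and 136 between ranges. DESeq2 called 1 member, Utf1, in MEHP + ATRA against ATRA, 12 genes in the interaction and 338 between ranges. A fit to the compared groups and vehicle of the same range called 439 genes with MEHP, 3 members with ATRA, 1 member and 967 genes in MEHP + ATRA against ATRA, and 0 genes between ranges (edgeR). Without the range term 1 member (Utf1) and 2229 genes were called with MEHP, 10 genes in the interaction, and Zfp42 with MEHP + ATRA was 0.02. Without the low count filter 19 genes were called between ranges.

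The first title number held as many treated as vehicle libraries in each of 9 sets. Mean residuals of treated and vehicle libraries of a set correlated at 0.08 to 0.754, above 0.1 in 8 of 9, and 7 of 9 were most like their own number, so libraries share a number without a stated pairing. A replicate block on that number within range called 1 member each with MEHP, ATRA, MEHP + ATRA and MEHP + ATRA against ATRA, in each case Utf1, and 2 genes in the interaction; with MEHP + ATRA Dppa3 (adjusted p = 0.0804) and Lin28a (adjusted p = 0.0513, edgeR) did not pass under it, and with ATRA it gave Pou5f1 −0.04, Nanog −0.11 and Dppa5a −0.15. A replicate block over both ranges called 42 genes between ranges.

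After seeing the data, the first component was added as a covariate. It called Utf1 as the 1 member with MEHP, with ATRA and in MEHP + ATRA against ATRA, beside 1425 genes with MEHP and 1347 in MEHP + ATRA against ATRA, and 1 member and 542 genes between ranges. It gave Pou5f1 −0.00033 and Dppa5a −0.05 with ATRA, and it called Sox2 higher with MEHP + ATRA (adjusted p = 0.0206, edgeR). Leaving out both libraries farthest on the component called 1 member, Dppa3, with ATRA (adjusted p = 0.0286, edgeR).

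Leaving out 1 library at a time called 1 to 3 members with MEHP + ATRA (1 to 3 also when scaled to germ cell genes) and 0 to 1 in MEHP + ATRA against ATRA, 340 to 689 genes in that comparison, 3 to 8 in the interaction and 10 to 169 between ranges. It gave log2 fold changes of −0.31 to 0.17 for Sox2 and −0.64 to 0.06 for Dppa5a with MEHP, of −0.09 to 0.07 for Pou5f1, −0.29 to 0.28 for Nanog, −0.29 to 0.20 for Dppa5a and −0.15 to 0.10 for Zfp42 with ATRA, and of −0.12 to 0.38 for Sox2 and −0.17 to 0.08 for Zfp42 in MEHP + ATRA against ATRA. The causes were not tested.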
